A study of Mus musculus with 24 samples.

Results

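Gene expression was compared between basal cells of the mammary gland of Snai2 null mice and of wild-type (WT) mice. Both groups were taken by their labels: 3 null basal arrays, numbered 1 to 3, and 3 WT basal arrays with the same numbers, 6 of the 24 arrays of the series. Null mice were homozygous for a LacZ allele of Snai2 (SNAI2 LacZ/LacZ in the labels), WT mice were SNAI2+/+, and all were female. The labels name no driver that limits the allele to a cell type, so luminal, stromal and unsorted cells of the same genotypes, 3 arrays each, carry it too. Basal cells had been separated from luminal and stromal cells by their surface CD49f (the integrin encoded by Itga6) and Epcam. Total RNA of each sample was read on an Illumina bead array, in which a probe's brightness follows the amount of its transcript. The sources used here give no strain or age and do not say whether samples were pooled. Nor do the labels state that each array of a group stands for its own animal, so the spread among arrays of a group may be technical. The p-values reflect that spread as estimated over all 24 arrays together, not over the 6 basal arrays alone.

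Snai2 encodes Slug, a zinc-finger repressor of the Snail family that binds E-box sequences and is known for shutting off epithelial adhesion genes. In the mammary gland it is known as a factor of the basal layer, the outer cell layer of ducts, made up largely of contractile myoepithelial cells and of progenitors. Luminal cells line the duct and make milk, and stromal cells include fibroblasts, vessel cells and fat cells.

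Between null and WT basal cells 105 of 12549 genes tested differed, 0.837% of them, with 56 higher in null (0.446%) and 49 lower (0.39%). The rises were led by the X-linked genes Bex4 and Bex1, the cell junction genes Pkp2, Cldn7 and Ocln, the keratin gene Krt73, the nuclear pore gene Nup210 and the actin-binding genes Lcp1 and Ppp1r9a. The falls were led by the amine oxidase gene Aoc3, the globin gene Cygb, the lipase gene Lpl, the transcription factor gene Tshz3 and the co-receptor gene Nrp1. A gene passed when its adjusted p was below 0.05 (limma, Benjamini-Hochberg adjustment over all genes tested), and 100 of the 105 differed at least 2-fold. Of the rises 19 and of the falls 14 were at least 4-fold. At an unadjusted p below 0.05, 485 genes were higher and 526 lower. Values are log2 intensities after background correction and quantile normalization, and a log2 change of 1 is a doubling. The plot of change against level shows genes that passed from the dimmest intensities up to that of Mdk, a growth factor gene with means of 10.08 in WT and 8.39 in null basal cells.

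**Figure D1:**
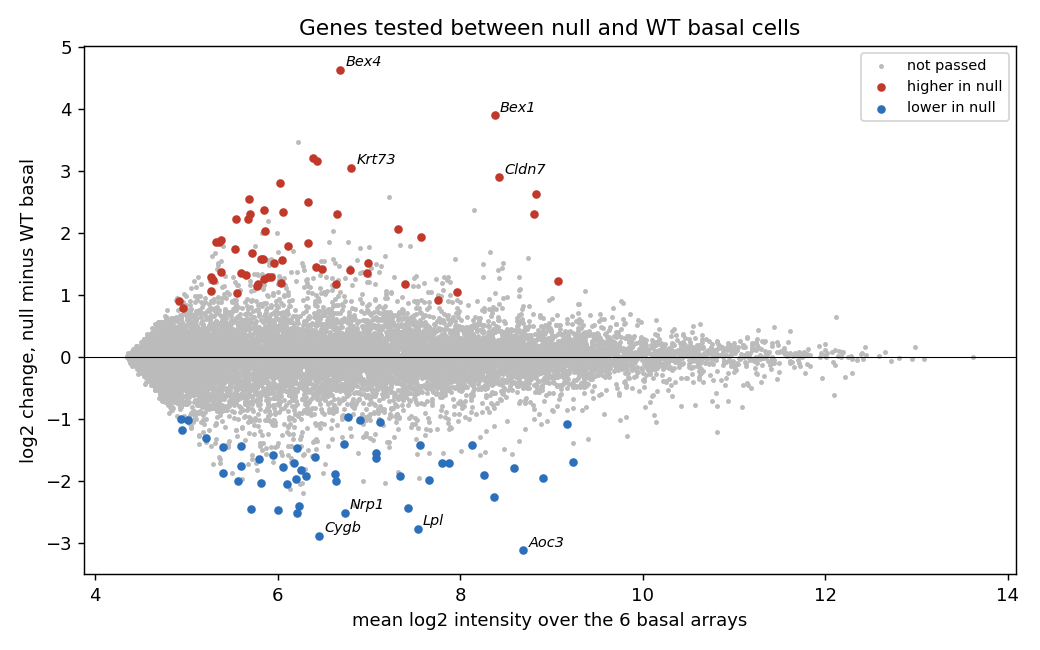
Each point is 1 of 12549 genes, with the mean log2 intensity over the 6 basal arrays on the x axis and the log2 change, null minus WT basal, on the y axis. Red points are the 56 genes higher and blue points the 49 genes lower in null basal cells, with Bex4 at 4.63 and Aoc3 at -3.12 as the extremes.

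The arrays held the markers of the sort. Krt5, a keratin of basal cells, averaged 11.30 ± 0.12 on the log2 scale in WT and 11.53 ± 0.02 in null basal cells (SD, n = 3), while WT luminal cells averaged 8.19 ± 0.54 and WT stromal cells 5.72 ± 0.65. Krt14, Trp63, Acta2 and Itga6 were highest in basal cells too. Snai2 and Epcam have no probe among those named, so the deleted gene did not check the genotype labels. The 6 arrays had between 13202 and 14245 detected probes of 25697, and their correlations with each other ran from 0.916 to 0.982. Median raw intensity was 134.6 and 135.9 on WT basal 1 and 2, and between 93.6 and 102.2 on WT basal 3 and the null basal arrays. The third principal component of the 24 arrays, with 9.65% of the variance, split them in a way no label gives. WT basal 1, WT basal 2 and null basal 1 lay on its positive side, and WT basal 3, null basal 2 and null basal 3 on its negative side.

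These 6 arrays chose the 105 genes, so the values within each side of the split describe them and test nothing. The median change of the 56 higher genes was 1.71 within the positive and 1.60 within the negative side. For the 49 lower genes it was -2.04 and -1.24. In 40 of these 49 WT basal 3 was the lowest of the WT arrays, a far larger share than the 38.2% of all genes. With only the positive-side basal arrays 54 genes passed, 30 higher and 24 lower. With only the negative-side ones 22 passed, 16 higher and 6 lower. Without WT basal 3 the counts were 88 higher and 113 lower. The fits to 1 side alone were added after seeing the data, and the part that the split has in the falls was not tested.

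The Bex genes encode small adaptor proteins first described in brain and lie next to the related Tceal genes on the X chromosome. Bex4 read 4.34, 4.31 and 4.47 on WT basal arrays 1 to 3 and was not detected there, against 9.22, 8.70 and 9.07 on the null ones. It was at least 17-fold higher in null cells (log2 change 4.63 ± 0.29, SE, adjusted p = 7.45e-09). Bex1, 6 places away in the gene order, read 5.84, 6.37 and 7.07 on WT and 10.56, 10.24 and 10.18 on null basal arrays (3.90 ± 0.37, adjusted p = 4.44e-06). WT luminal means were 6.61 for Bex4 and 9.01 for Bex1. In both genes every null array lay well above every WT array, and another passing probe of each rose too, by 3.23 for Bex4 and 3.84 for Bex1. Probe sequences were not available, so reads of one gene by the other's probe cannot be told apart here. The other 7 Bex and Tceal genes tested did not pass, the farthest being Tceal6 at -0.99 (adjusted p = 0.357).

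**Figure D2:**
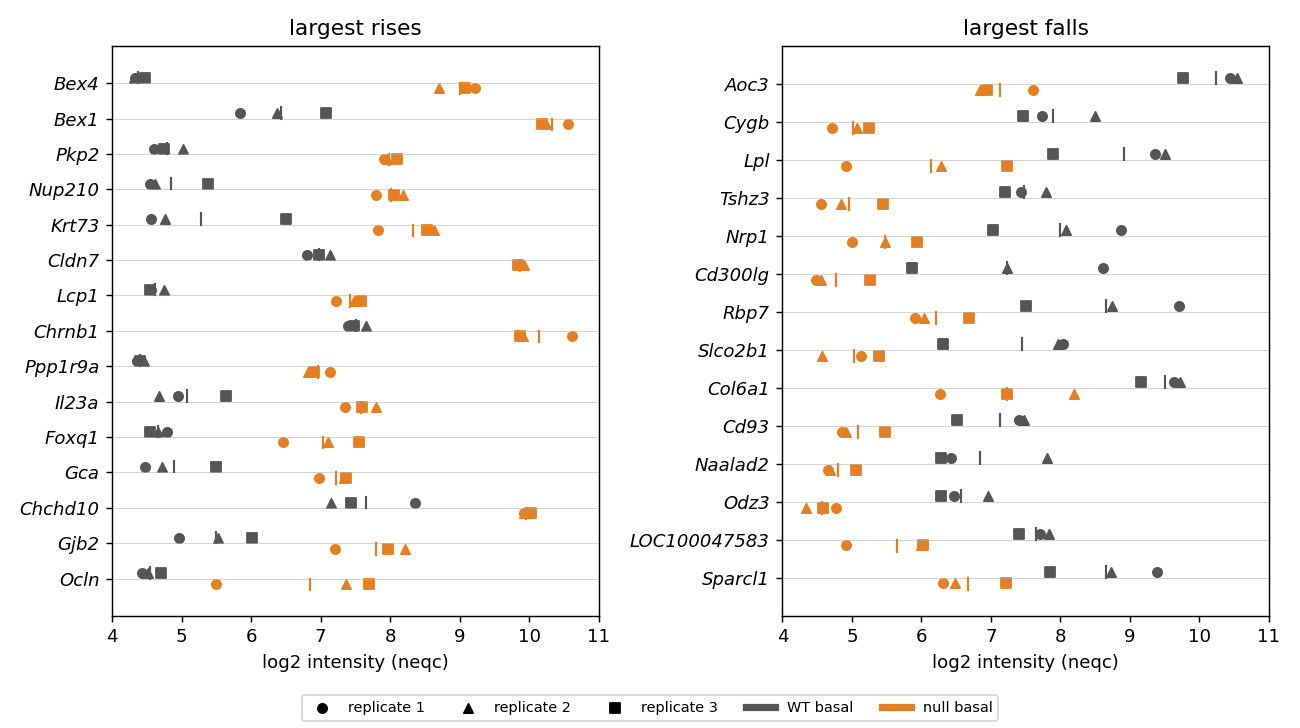
Log2 intensity (x axis) of the genes with the largest rises (left) and falls (right) that are described in the text, on each basal array. Grey is WT, orange is null, the symbol gives the replicate number and the short vertical line the group mean. The 3 null arrays lie apart from the 3 WT arrays in every gene drawn, and WT basal 3 is often the WT array nearest to the null ones among the falls.

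Genes of tight junctions, the seals between neighbouring epithelial cells, included 4 that rose and 1 that fell among 30 tested, beside 0.837% over all genes. Cldn7, a claudin, read 6.81, 7.13 and 6.98 on WT and 9.84, 9.92 and 9.84 on null basal arrays. Its change of 2.89 ± 0.30 (adjusted p = 9.05e-06) left the null mean of 9.87 close to the 10.02 of WT luminal cells. Ocln, which encodes the junction protein occludin, was undetected on the WT arrays (4.42, 4.52 and 4.70) and read 5.49, 7.36 and 7.69 in null cells, at least 3.82-fold higher (2.30 ± 0.43, adjusted p = 0.00808). Null basal 1 was the lowest null array for Ocln but still above all WT ones. Marveld3, a relative of occludin, rose by 1.52 ± 0.33 from 5.72, 6.54 and 6.42 to 7.50, 7.95 and 7.79. The scaffold gene Magi3 rose by 0.91 ± 0.21.

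Jam2, an adhesion molecule found in endothelial junctions, was the tight junction gene that fell (-1.48 ± 0.34, adjusted p = 0.0395). It passed in only 5 of 17 alternative settings. The claudin genes Cldn4 and Cldn3 had changes of 2.00 ± 0.53 and 1.80 ± 0.50 and did not pass (adjusted p = 0.0992 and 0.122), though their null arrays all lay above their WT arrays. Cldn5, a claudin of vessels, had -1.95 ± 0.67 (adjusted p = 0.299). The median change of the 30 genes was 0.05, against 0.00 over all genes, so members of the list moved both ways. With the negative-side basal arrays alone 2 of the 4 rises passed, with the positive-side ones 1, and in a fit to the 6 basal arrays alone 1.

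Of 11 desmosome genes, which build the spot-like anchors for keratin filaments, 2 rose and 0 fell, beside 0.446% of all genes that rose, and 10 of the 11 changes were positive with a median of 0.45. Pkp2, a plakophilin of the desmosomal plaque, read 4.60, 5.02 and 4.74 on WT and 7.92, 7.95 and 8.10 on null basal arrays. This rise of 3.20 ± 0.28 (adjusted p = 1.6e-06) left a null mean of 7.99, beside 8.04 in WT luminal cells. Dsc3, a desmosomal cadherin of basal epithelia, rose by 1.84 ± 0.41 (adjusted p = 0.0337), with 1 WT array, replicate 2 at 6.75, close to the lowest null value of 6.78. The desmosome genes Ppl and Dsc2 had 1.30 ± 0.35 and 0.93 ± 0.25 and did not pass (adjusted p = 0.108 and 0.1). In a fit to the 6 basal arrays alone, with median scaling and with either side of the split alone 1 desmosome gene passed. Pkp2 passed in each of 17 alternative settings and Dsc3 in 10 of the 17.

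No gene of 14 adherens junction genes passed. Cdh1, the E-cadherin gene and a classical target of Snail-family repressors, had a change of 0.48 ± 0.21 (adjusted p = 0.544), with WT arrays at 11.03, 10.93 and 11.64 and null arrays at 11.43, 11.81 and 11.80. The groups overlapped at WT basal 3. Among 28 epithelial regulators and surface proteases 1 rose, beside 0.446% of all genes. It was Spint1, an inhibitor of the membrane protease matriptase (1.36 ± 0.32, adjusted p = 0.0464), which passed in only 5 of 17 alternative settings. Of the 28 changes 22 were positive, with a median of 0.27. In a fit to the 6 basal arrays alone, with median scaling and with either side of the split alone 0 of the 28 passed. The vesicle traffic gene Rab25 had 1.37 ± 0.36 (adjusted p = 0.0929).

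Slug and its relatives bind the E-box CAGGTG, or CACCTG on the other strand, so the letters around the start sites of the risen genes were read from RefSeq promoter windows (GRCm38.p6, 250 bases before to 50 after a start). A window was given for 45 of the 56 higher genes, and 21 of these 45 (46.7%) held the motif on either strand, where the 2 spellings are the same site and do not overlap another motif searched. The share was 21.7% (2061 of 9497) over the genes tested that had a window and 22.6% (6098 of 27025) over all genes with one. Among the lower genes it was 5 of 26 (19.2%), a value that is void as a check because only 53.1% of those genes had a window. Genes tested also had windows in only 75.7%. A gene counts here if any of its windows holds the motif, and some genes have several windows. Counted by window, 24 of 63 (38.1%) held it among the higher genes and 2285 of 12221 (18.7%) among the genes tested. Median GC content was 60.7% for the windows of the higher genes and 60.0% for those of the genes tested. A match is a run of letters, not a measured binding site, and no test was run.

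The windows of the 5 risen genes with more than 1 motif, and that of the gene with the largest rise, are shown with the motif in capitals.
Cldn7, chr11:69965171-69965470, plus strand: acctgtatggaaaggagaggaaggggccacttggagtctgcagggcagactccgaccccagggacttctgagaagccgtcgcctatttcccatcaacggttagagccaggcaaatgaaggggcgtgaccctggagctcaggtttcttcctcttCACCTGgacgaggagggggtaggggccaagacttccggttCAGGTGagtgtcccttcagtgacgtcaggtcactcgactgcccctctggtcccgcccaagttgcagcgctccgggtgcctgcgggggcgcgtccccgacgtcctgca
Ocln, chr13:100552449-100552748, minus strand: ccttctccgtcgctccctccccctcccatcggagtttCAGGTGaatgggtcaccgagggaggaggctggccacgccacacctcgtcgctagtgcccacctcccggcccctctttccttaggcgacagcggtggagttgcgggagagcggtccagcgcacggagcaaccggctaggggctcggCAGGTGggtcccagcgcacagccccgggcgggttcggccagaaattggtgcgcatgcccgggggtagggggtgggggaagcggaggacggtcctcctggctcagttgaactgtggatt
Gca, chr2:62664077-62664376, plus strand: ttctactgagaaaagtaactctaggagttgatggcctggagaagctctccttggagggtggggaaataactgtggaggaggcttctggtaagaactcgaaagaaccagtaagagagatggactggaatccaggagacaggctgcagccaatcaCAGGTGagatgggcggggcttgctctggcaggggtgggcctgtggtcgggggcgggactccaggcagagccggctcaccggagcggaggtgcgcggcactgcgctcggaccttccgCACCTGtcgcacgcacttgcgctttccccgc
Mapk13, chr17:28769067-28769366, plus strand: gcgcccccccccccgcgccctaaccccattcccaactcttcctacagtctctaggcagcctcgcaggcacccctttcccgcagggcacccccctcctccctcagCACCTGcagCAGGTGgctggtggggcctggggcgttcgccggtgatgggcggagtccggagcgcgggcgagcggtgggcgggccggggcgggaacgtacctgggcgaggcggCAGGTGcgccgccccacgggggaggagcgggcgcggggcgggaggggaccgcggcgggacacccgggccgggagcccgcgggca
Arfgef3, chr10:18743709-18744008, minus strand: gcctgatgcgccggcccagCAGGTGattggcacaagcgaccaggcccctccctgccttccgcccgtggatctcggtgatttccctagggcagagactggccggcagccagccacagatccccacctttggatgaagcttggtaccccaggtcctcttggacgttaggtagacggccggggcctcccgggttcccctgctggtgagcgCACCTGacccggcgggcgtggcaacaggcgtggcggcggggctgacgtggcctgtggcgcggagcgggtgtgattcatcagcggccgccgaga
Bex4, chrX:136138746-136139045, plus strand: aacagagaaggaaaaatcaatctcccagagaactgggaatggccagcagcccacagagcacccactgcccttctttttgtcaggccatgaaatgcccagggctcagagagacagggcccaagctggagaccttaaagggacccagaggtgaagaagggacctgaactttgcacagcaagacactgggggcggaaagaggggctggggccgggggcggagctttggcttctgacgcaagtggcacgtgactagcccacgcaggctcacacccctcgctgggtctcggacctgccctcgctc

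In these windows the Cldn7 motifs begin 97 and 57 bases before the start, and those of Ocln 213 and 68 bases before it. RefSeq gives both genes another start as well, and for each the window with more motifs is shown: the other Cldn7 window holds 0 and the other Ocln window, which overlaps the one shown, holds 1. Gca, which encodes the calcium-binding protein grancalcin, has 1 motif 97 bases before and 1 beginning 20 bases after its start. Mapk13, a p38-family kinase gene, has 3, beginning 146, 137 and 34 bases before it, and Arfgef3 has 2, beginning 231 and 43 bases before it. The Bex4 window holds 0, which says only that these letters are not in it. Gca read 4.47, 4.71 and 5.50 on WT and 6.98, 7.34 and 7.36 on null basal arrays (2.33 ± 0.26, adjusted p = 2.43e-05). Mapk13 read 6.04, 6.07 and 6.04 against 7.64, 7.03 and 7.02 (1.18 ± 0.25, adjusted p = 0.0264).

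Of 27 cytoskeleton regulators, genes that shape actin, 2 rose and 0 fell, beside 0.446% of all genes that rose. Lcp1, an actin-bundling protein known from blood cells, was undetected on the WT arrays (4.56, 4.75 and 4.55) and read 7.22, 7.48 and 7.58 in null ones, at least 5.72-fold higher. Ppp1r9a, an actin-binding scaffold of neurons also called neurabin, went from undetected (4.36, 4.47 and 4.40) to 7.14, 6.83 and 6.91, at least 4.13-fold. Both sets of arrays stood far apart, and both rises passed with either side of the split alone. Cobl, an actin nucleator gene, had 1.22 ± 0.34 (adjusted p = 0.119). Hook1, a microtubule-linking protein, and Tubb4a, a beta-tubulin, also rose, by 1.04 ± 0.24 and 1.78 ± 0.37.

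Of 22 basal keratins and transcription factors 1 passed, beside 0.837% of all genes. Krt73, known as a keratin of the hair follicle's inner root sheath, rose by 3.05 ± 0.48 (adjusted p = 0.00195), from 4.56, 4.77 and 6.50 to 7.83, 8.63 and 8.53, with WT basal 3 well above the other WT arrays. Krt6a, a keratin induced in wounded epidermis, had null values of 5.14, 6.84 and 6.92 over undetected WT ones and did not pass (1.79 ± 0.51, adjusted p = 0.133). The 14 laminin-332 and hemidesmosome genes and the 18 contractile genes had 0 that passed, with medians of 0.06 and -0.17. The smooth muscle actin gene Actg2 had -0.66 ± 0.33 (adjusted p = 0.659).

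Luminal lists did not hold a gene that passed: 0 of 12 simple keratins and luminal transcription factors, 0 of 13 hormone-sensing, 0 of 12 luminal progenitor and 0 of 11 milk genes. Krt19, a luminal keratin, read 8.13, 8.33 and 7.85 on WT and 8.86, 9.36 and 9.37 on null basal arrays, without overlap, at 1.09 ± 0.29 (adjusted p = 0.101), while WT luminal cells were at 11.18. Gata3 and Esr1, regulators of luminal identity, had -0.65 ± 0.27 and -0.85 ± 0.25 (adjusted p = 0.487 and 0.152). The casein gene Csn2 was undetected in WT basal cells and read 5.44, 9.07 and 9.33 in null ones. Null basal 1 lay far below the other null arrays, so the change of 3.46 had an SE of 1.13 and an adjusted p of 0.25.

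The genes that changed in basal cells were then set against WT luminal and WT stromal arrays, which entered their choice only through the shared estimate of the spread, the normalization and the detection filter. Of the 56 higher genes 26 (46.4%) were higher in WT luminal than in WT stromal cells, beside 12.4% of all genes tested, and 5 (8.93%) were higher in WT stromal cells, beside 12.2%. Of the 49 lower genes 0 were higher in WT luminal and 34 (69.4%) higher in WT stromal cells. Nup210, a membrane protein of the nuclear pore, was among the first: it read 4.55, 4.62 and 5.38 on WT and 7.80, 8.18 and 8.05 on null basal arrays (3.16 ± 0.50), with 9.09 in luminal and 5.57 in stromal WT cells. Foxq1, a forkhead transcription factor gene, was undetected in WT basal cells (4.79, 4.66 and 4.54) and read 6.46, 7.11 and 7.55 in null ones, at least 4.37-fold higher, with 7.82 in WT luminal cells. Gjb2, the gap junction gene of connexin 26, rose by 2.30 ± 0.50, from 4.96, 5.52 and 6.02 to 7.21, 8.22 and 7.97, with a WT luminal mean of 8.40.

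Some genes rose that were undetected in luminal and stromal cells. Of the 56 higher genes 5 were detected on 0 of the 12 luminal and stromal arrays of either genotype: Casq2, Prr9, Them5, Trh and the transcript LOC100044582. That is 8.93%, beside 1.28% (160) of all genes tested. LOC100044582 was detected on the 3 null basal arrays and on no other, so it passed the detection filter only through them. Trh needed the null basal arrays to pass it too, being detected elsewhere only on 2 WT basal arrays. So did Gpx2 and Nebl, each detected elsewhere only on 1 null luminal array, and Mat1a, detected on 2 null basal arrays and 1 null luminal array. Lpo, detected elsewhere only on 1 null stromal and 1 null unsorted array, needed the null basal arrays as well. The share of 8.93% is thus partly set by the filter, and nothing is read from it. Trh, the precursor of thyrotropin-releasing hormone, read 5.17, 4.49 and 4.99 on WT and 6.77, 6.59 and 6.29 on null basal arrays (1.67 ± 0.17, adjusted p = 1.01e-05). Il23a, a cytokine subunit, rose by 2.50 ± 0.31, from 4.95, 4.67 and 5.63 to 7.35, 7.80 and 7.60, with WT luminal and WT stromal means of 4.68 and 4.50. Unlike the 5 genes above, Il23a was detected on 2 null luminal arrays, with a null luminal mean of 5.44. Casq2, a calcium store protein known from heart muscle, rose by 1.17 ± 0.18, and the antioxidant enzyme gene Gpx2 was undetected in WT basal cells and at least 2.80-fold higher in null ones. Of the 56 rises, 16 were of genes undetected on every WT basal array and 22 of genes detected on all 3. The null and WT arrays overlapped in 1 of the 56, Them5, an acyl-CoA thioesterase gene with 6.35 on WT basal 3 and 5.94 on null basal 1.

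Chrnb1, Syngr1, Pcp4 and Eno2, known from muscle and nerve cells, were picked from the genes that passed after their values were seen. Chrnb1, a subunit of the muscle acetylcholine receptor, read 7.40, 7.66 and 7.49 on WT and 10.62, 9.92 and 9.88 on null basal arrays (2.62 ± 0.49, adjusted p = 0.00914). Syngr1, a synaptic vesicle protein, went from undetected (4.50, 4.52 and 4.67) to 6.76, 6.70 and 6.89, at least 3.65-fold higher (adjusted p = 1.67e-06), with little spread in either group. Pcp4, a calmodulin-binding peptide of Purkinje neurons, was at least 3.33-fold higher. Eno2, the enolase of neurons, rose by 1.41 ± 0.33 from 4.96, 5.89 and 6.48 to 7.12, 7.42 and 7.03. It passed in only 5 of 17 alternative settings.

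Among 20 cholesterol synthesis genes 1 passed, beside 0.837% of all genes. It was Mvd, which encodes a decarboxylase of the mevalonate route (undetected in WT basal cells, at least 2.00-fold higher, adjusted p = 0.000861). Of the 20 changes 16 were positive, with a median of 0.48. Msmo1, a later enzyme of that pathway, had 1.43 ± 0.72 (adjusted p = 0.653) with WT arrays at 5.02, 6.15 and 7.74. Chchd10, a mitochondrial protein, rose by 2.31 ± 0.42 to 9.93, 9.93 and 10.02, next to a WT luminal mean of 9.88. Atp1b1, a subunit of the sodium pump, rose by 1.22 ± 0.25, and Slc27a1, a fatty acid transporter, by 1.26 ± 0.29.

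The receptor and growth factor lists held 2 genes that fell, where 0.39% of all genes fell. Nrp1, a co-receptor for semaphorins and VEGF, was the 1 of 34 semaphorin, neuropilin and ephrin genes that passed. It read 8.87, 8.08 and 7.02 on WT and 4.999, 5.48 and 5.93 on null basal arrays (-2.52 ± 0.41, adjusted p = 0.00226). Igfbp6, an IGF-binding protein, was the 1 of 23 FGF and IGF genes, at -1.97 ± 0.41. It passed in 9 of 17 alternative settings and Nrp1 in 16, and neither passed in a fit to the 6 basal arrays alone. With median scaling 0 of the 23 FGF and IGF genes fell. Igf1 had -1.62 ± 0.52 (adjusted p = 0.226). Mdk, the heparin-binding growth factor midkine, fell by 1.69 ± 0.32, from 10.58, 9.93 and 9.72 to 8.92, 8.26 and 7.98. Tshz3, a zinc-finger transcription factor, fell from 7.43, 7.79 and 7.21 to 4.56, 4.85 and 5.45 (-2.53 ± 0.48, adjusted p = 0.00936).

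Signalling lists held no other gene that passed. The 36 Wnt, 19 Notch, 28 TGF-beta and BMP and 11 ErbB genes had 0, with medians of -0.02, -0.20, -0.07 and 0.17. Notch4, a Notch receptor known in vessels, had -1.58 ± 0.51 (adjusted p = 0.244), and Epgn, an EGF-receptor ligand, 2.03 ± 0.67 (adjusted p = 0.256) with null arrays at 5.63, 8.67 and 8.56. Also 0 passed among 20 mesenchymal transition, 20 cell cycle, 20 interferon and antigen presentation and 20 immediate early and heat shock genes, whose medians were -0.32, 0.36, -0.22 and -0.24. The mesenchymal gene Tgfbi had -1.70 ± 0.43 (adjusted p = 0.0782), and Zeb2, a repressor that, like Slug, acts in epithelial-mesenchymal transition, -1.40 ± 0.42 (adjusted p = 0.174). Of the immediate early and heat shock genes, 17 of 20 had negative changes, with the immediate early gene Nr4a2 at -1.24 ± 0.40 (adjusted p = 0.249).

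**Figure D3:**
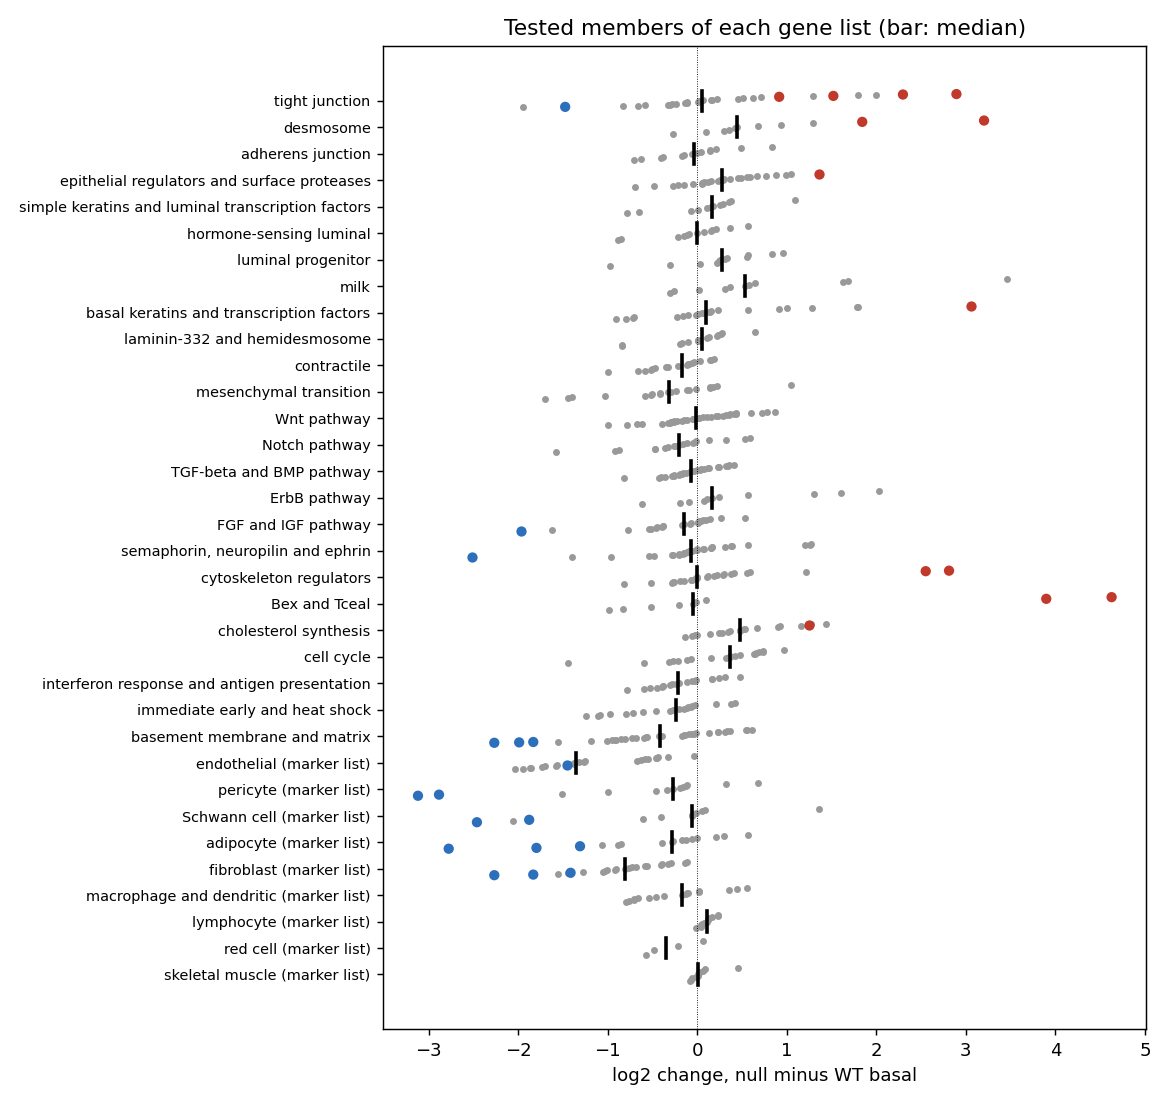
Log2 change, null minus WT basal (x axis), of every tested member of 34 gene lists (y axis). Grey points did not pass, red points rose, blue points fell and black bars are list medians. The lowest medians are those of the endothelial (-1.35) and fibroblast (-0.80) marker lists, and the highest rises are the 2 Bex genes.

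Of 34 basement membrane and matrix genes 3 fell and 0 rose, beside 0.39% of all genes that fell, with a median of -0.41. Col6a1 and Col6a2, chains of collagen VI that lie 3 places apart, fell by 2.27 ± 0.53 and 1.83 ± 0.40 (adjusted p = 0.0477 and 0.032). Col6a1 read 9.63, 9.72 and 9.16 on WT and 6.27, 8.20 and 7.24 on null basal arrays. Sparcl1, a matricellular protein, fell by 1.99 ± 0.35, and Has1, a hyaluronan synthase outside the list, fell by 1.91 ± 0.41. In a fit to the 6 basal arrays alone and with the negative-side ones 0 of the 34 passed, and 1 did with median scaling, without background correction, with the second deposited table or with the positive-side arrays. Col6a1 passed in 7 and Col6a2 in 8 of 17 alternative settings, and Sparcl1 in 16. Eln, the elastin gene, had -1.56 ± 0.42 (adjusted p = 0.101). In bulk samples such as these, fewer cells of a type and less RNA per cell cannot be told apart.

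Marker lists of cell types other than epithelium are given beside these falls. Over all genes tested 0.39% fell. The changes of all 24 endothelial genes were below 0 (median -1.35), and 1 passed, the VEGF receptor gene Flt1 (6.53, 6.44 and 5.41 in WT, undetected in null cells, at least 2.26-fold lower). The mean log2 intensity of the list was 7.47, 6.86 and 5.73 on WT basal 1 to 3 and 5.36, 5.59 and 5.61 on the null arrays, and 24, 21 and 16 of its genes were detected on the WT arrays against 11, 14 and 14 on the null ones. WT basal 3 thus lay close to the null arrays and far from the other WT arrays. The list's median was -1.84 on the positive and -0.13 on the negative side of the split, and without WT basal 3 the number of genes that fell was 9. Sox17, an endothelial transcription factor gene, read 8.56, 7.91 and 5.39 in WT against 5.005, 5.14 and 5.61 in null cells (adjusted p = 0.365).

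The changes of all 23 fibroblast genes were below 0 as well (median -0.80). Beside 0.39% of all genes, 3 of the 23 fell: Col6a1, Col6a2 and Clec3b. The list's mean was 7.71, 7.81 and 7.38 on WT and 6.50, 6.85 and 6.87 on null basal arrays, so that all WT arrays lay above all null ones, and the median was -1.12 on the positive and -0.47 on the negative side. Dcn, a defining fibroblast proteoglycan, was at 10.04 ± 0.27 in WT and 9.12 ± 0.04 in null basal cells, against 12.18 ± 0.17 in WT stromal cells. Pdgfra, a fibroblast receptor, had -1.45 ± 0.65 (adjusted p = 0.568), with WT arrays at 8.01, 8.35 and 5.45. With the arrays of either side alone 0 fibroblast genes passed.

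Beside 0.39% of all genes, 2 of 13 pericyte genes fell, both with a large step. Aoc3, an amine oxidase of vascular smooth muscle and fat cells, read 10.43, 10.54 and 9.77 on WT and 7.60, 6.84 and 6.94 on null basal arrays (-3.12 ± 0.50, adjusted p = 0.00226). Cygb, a globin of fibroblasts and pericyte-like cells, read 7.74, 8.49 and 7.47 against 4.72, 5.07 and 5.25 (-2.88 ± 0.40, adjusted p = 0.000381). Rgs5, a defining pericyte gene, had -1.51 ± 0.36 (adjusted p = 0.0514). The list's median was -0.27, and its mean was 6.87, 6.64 and 6.35 in WT against 5.92, 6.01 and 5.82 in null cells.

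Beside 0.39% of all genes, 2 of 12 genes of Schwann cells, the glia of nerves, fell. Among them was Cdh19, a cadherin of that lineage, which read 6.27, 6.45 and 6.30 in WT and was undetected in null basal cells (4.39, 4.57 and 4.43), at least 2.62-fold lower (adjusted p = 0.00369). Mbp, a myelin gene, had 1.36 ± 0.46 (adjusted p = 0.285). The list's mean was 6.40, 6.61 and 6.49 in WT and 6.09, 5.93 and 5.96 in null cells, so WT basal 3 lay with the other WT arrays here. Its median change was only -0.06, with 9 changes negative and 3 positive, so the typical gene of the list did not share the gap between the means. Drp2, a dystrophin-related protein of Schwann cells that no list held, fell by 1.55 ± 0.27.

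Of 17 adipocyte genes 3 fell, beside 0.39% of all genes: Lpl, the fatty acid carrier gene Cd36 and Lep, the gene of the hormone leptin. Lpl, the lipase that frees fatty acids from lipoproteins, read 9.37, 9.50 and 7.89 on WT and 4.92, 6.28 and 7.23 on null basal arrays (-2.78 ± 0.48, adjusted p = 0.00488). The other 14 did not pass, and Fabp4, a fatty acid carrier of fat and vessel cells, had -1.32 ± 0.40 (adjusted p = 0.176). The list's median was -0.29, and its mean was 6.99, 6.59 and 6.12 in WT and 5.79, 5.99 and 6.12 in null cells, with WT basal 3 level with null basal 3. With the negative-side arrays alone 0 adipocyte, 0 pericyte and 0 Schwann cell genes passed. No macrophage and dendritic (17), lymphocyte (13), red cell (4) or skeletal muscle (11) gene passed, and Lyz2, a macrophage marker, had -0.79 ± 0.61. Their changes ran in both directions: 12 of the 17 macrophage and dendritic genes were negative (median -0.17) and 3 of the 4 red cell genes (-0.35), while 12 of the 13 lymphocyte genes (0.10) and 7 of the 11 skeletal muscle genes (0.01) were positive. The part that these marker levels have in the falls of other genes was not tested.

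**Figure D4:**
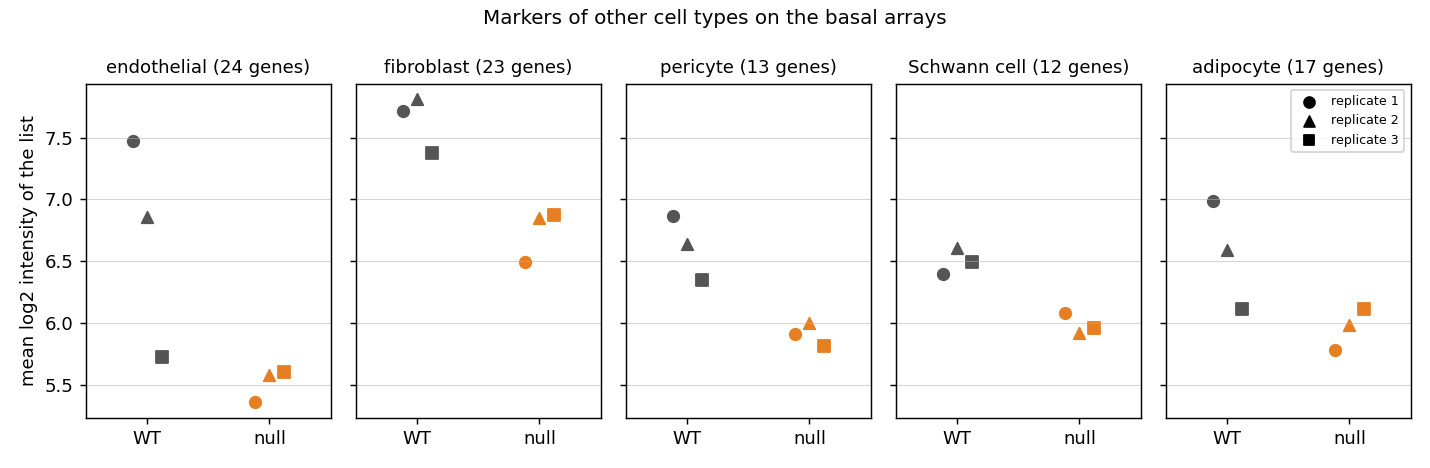
Mean log2 intensity (y axis) of 5 marker lists on each WT (grey) and null (orange) basal array, with the symbol giving the replicate number. WT basal 3, at 5.73 for endothelial genes, sits near the null arrays (5.36 to 5.61), while for Schwann cell genes all WT arrays (6.40 to 6.61) lie above all null arrays (5.93 to 6.09). The median change of the Schwann cell genes was only -0.06.

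Of the 49 lower genes 11 (22.4%) and of the 56 higher genes 0 belonged to at least 1 of these marker lists, which hold 133 (1.06%) of all genes tested. All gene lists were chosen with earlier results of these data known. These shares and the counts per list above therefore describe the genes and test nothing. C4b, C1ra, C1s2 and Serping1, which encode complement components and the inhibitor of C1, fell by 1.95 ± 0.35, 1.41 ± 0.29, 1.62 ± 0.38 and 1.72 ± 0.30. C1ra and C1s2 lie 4 places apart, and C1s2 has a near-identical copy, so its value is uncertain. Serping1 read 8.98, 8.89 and 8.34 on WT and 6.97, 6.97 and 7.13 on null basal arrays. Thbd, the thrombin receptor thrombomodulin, and Cd93, a receptor of endothelial and myeloid cells, are neighbours in the gene order and fell by 1.71 ± 0.38 and 2.04 ± 0.39. The complement and neighbour genes were picked after their values were seen.

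Further large falls were those of Cd300lg, an immunoglobulin-family receptor known in endothelium, Rbp7, a retinol-binding protein, and Slco2b1, an organic anion transporter. Cd300lg read 8.61, 7.23 and 5.86 on WT and 4.48, 4.56 and 5.26 on null basal arrays (-2.47 ± 0.55, adjusted p = 0.0324). Rbp7 read 9.71, 8.74 and 7.50 against 5.90, 6.04 and 6.68 (-2.44 ± 0.56). Slco2b1 read 8.04, 7.97 and 6.31 against 5.14, 4.58 and 5.39 (-2.41 ± 0.44). In these genes, too, WT basal 3 was the WT array nearest to the null ones. Naalad2, a peptidase gene with WT arrays at 6.42, 7.80 and 6.28, fell by 2.04 ± 0.42, and the transcript LOC100047583 by 2.00 ± 0.35, from 7.70, 7.83 and 7.40 to 4.92, 5.99 and 6.02.

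Not all genes that fell were detected in stromal cells. Of the 49 lower genes 3, Brinp3, Lep and D11Bwg0517e, were detected on 0 of the 12 luminal and stromal arrays (6.12%, beside 1.28% of all genes tested). All 3 needed the WT basal arrays to pass the detection filter, so nothing is read from this share. Brinp3, a neural secreted protein, read 6.54, 7.22 and 6.08 on WT and 5.40, 4.93 and 4.58 on null basal arrays (-1.64 ± 0.22, adjusted p = 0.000258). Cyp2s1, a cytochrome P450 of epithelia, fell by 1.40 ± 0.31, from 7.52, 7.94 and 6.83 to 6.46, 6.29 and 5.33, with WT luminal and WT stromal means of 4.91 and 5.24. Odz3, a teneurin gene under the array's older name, was undetected in null basal cells and at least 3.07-fold lower (WT arrays 6.46, 6.96 and 6.29). Another passing probe of Odz3 changed by only -0.21. Unlike the 3 genes above, Odz3 was detected on 3 WT and 3 null stromal arrays, with a WT stromal mean of 6.56. Cyp2s1 was detected on 2 WT and 2 null stromal arrays. Of the 49 falls, 9 were of genes undetected on every null basal array and 25 of genes detected on all 3.

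The null and WT arrays did not overlap in 55 of the 56 higher and all 49 lower genes, but these arrays chose the genes, so nothing is read from these counts. Over all genes tested the 3 null arrays lay above the 3 WT ones in 6.37% and below them in 7.12%. In 26 of the 105 genes other probes of the gene also passed the detection filter, and in 23 of these 26 all of them had the same sign of change. The sign says nothing of the size. The other probe was near the main one for Bex1 (3.84) and Nrp1 (-2.51). It hardly moved for Marveld3 (0.12), Odz3 (-0.21) and Flt1 (-0.27), and those of Gjb2 had -0.06 and 0.88.

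The same genes were examined for the effect of the null allele in the other populations. Null against WT luminal cells gave 1 gene that passed (0.00797% of those tested), stromal cells 3 (0.0239%) and unsorted cells 35 (0.279%), and of the 105 basal genes 0, 0 and 2 passed there. The 2 were Bex4, at 2.21 in unsorted cells, and Pkp2, at 1.36. In luminal cells the 56 higher genes had a median change of 0.09 and the 49 lower genes one of -0.50, with 35 and 43 of the same sign as in basal cells. Stromal medians were 0.07 and -0.01 (33 and 26 of the same sign), and unsorted medians 0.54 and -0.74 (48 and 44). The medians of all genes were between -0.02 and 0.01 in these populations.

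**Figure D5:**
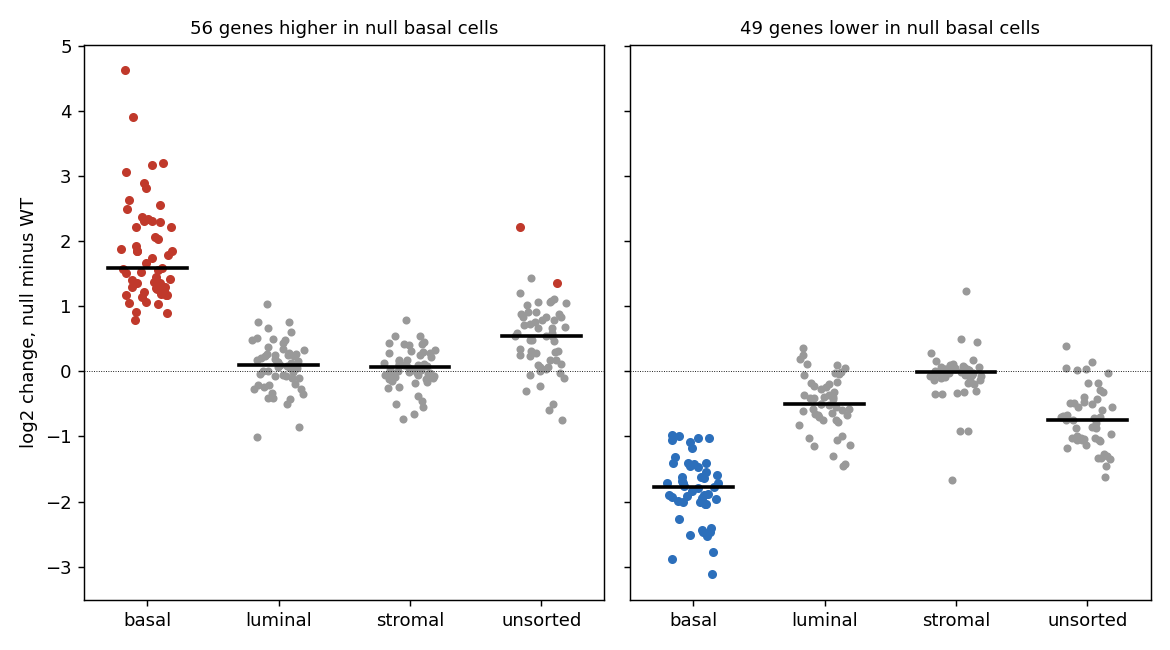
Log2 change, null minus WT (y axis), of the 56 genes higher (left) and the 49 genes lower (right) in null basal cells, in each of 4 cell populations (x axis). Coloured points passed in that population, grey points did not, and black bars are medians. The basal values chose the genes, and the luminal and stromal values of the higher genes lie around 0.09 and 0.07.

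The difference between the null effects was itself tested. Between basal and luminal cells it passed for 21 genes (0.167%), and 17 of the 56 higher and 3 of the 49 lower basal genes were among them. Between basal and stromal cells it passed for 20 genes (0.159%), 13 higher and 4 lower basal genes among them. Both tests were passed by 14 basal genes. The basal change that chose the basal genes is part of both contrasts, so these overlaps were partly fixed in advance and test nothing. For Bex4 the effect in basal cells exceeded that in luminal cells by 4.11 ± 0.41 (adjusted p = 3.12e-05) and that in stromal cells by 4.89 ± 0.41. Syngr1 exceeded its luminal effect by 2.57 ± 0.28, and Bex1, Pkp2, Cldn7, Lcp1, Ppp1r9a, Gca, Gpx2, Trh and LOC100044582 also passed both tests. Cygb and Brinp3 were among the lower genes that passed both. Foxq1, Lpo, Tubb4a, Plekhb2, Rnf208 and Mvd passed against luminal cells, and Nup210, Il23a and Odz3 against stromal cells, without passing the other test. Gpx2, Trh, LOC100044582 and Lpo were tested only because null basal arrays detected them, and Brinp3 only because WT basal arrays did. Their differences from luminal and stromal cells were thus partly set by the detection filter, and nothing is read from them. For basal genes that passed neither test a difference from luminal or stromal cells was not shown.

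The genes next to Snai2 on chromosome 16 were examined because an altered allele is flanked by them. Of 29 tested genes within 50 places on either side 1 passed, Pkp2, 24 places away, and the median change of the 29 was 0.09 with 18 positive. The next largest changes were those of Efcab1 at 0.98, Prkdc, a DNA repair kinase gene, at 0.68, Marf1 at -0.83 and Fgd4 at 0.52. Whether the place of Pkp2 on this chromosome has a part in its rise was not tested.

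Of the 105 genes 17 passed under each of 17 other ways of processing or fitting the arrays, 12 higher and 5 lower. They were the higher genes Bex4, Bex1, Pkp2, Cldn7, Lcp1, Nup210, Ppp1r9a, Il23a, Syngr1, Pcp4, Plbd1 and Arfgef3, and, among the lower genes, Aoc3, Cygb, Cdh19 and Odz3. Plbd1, a phospholipase-like protein, read 6.13, 6.22 and 6.50 on WT and 8.60, 8.21 and 8.23 on null basal arrays. Arfgef3, a protein of the ARF exchange factor family, was undetected in WT basal cells, with 4.39 on each array, and read 5.94, 6.41 and 6.39 in null ones. In a fit to the 6 basal arrays alone 22 genes passed, 13 higher and 9 lower, and with arrays scaled to a common median 61, 28 higher and 33 lower.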

How the data were processed

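Per the file headers, the authors deposited unnormalized, linear probe intensity of 25697 probes on every array, each value beside a detection p-value from the authors' export. A second table deposited by the authors holds linear intensities that behave as quantile normalized, and served only as an alternative. The sources used here name no scanner software. With limma 3.58.1 in R 4.3.3, neqc removed the background estimated from the detection p-values, added an offset of 16, quantile normalized and gave log2 values. Probes with a detection p below 0.05 on at least 3 of 24 arrays were kept (17878), and the brightest probe stood for each gene. Symbols were updated through RefSeq (20733 current, 3872 by synonym, 1060 unmatched), and 36 symbols turned into dates or numbers were left out. A model of 8 group means covered the 24 arrays (lmFit, eBayes), with Benjamini-Hochberg adjustment over 12549 genes, two-sided. The script was tested on simulated data. Precision is limited by 3 arrays per group, at which the median SE of a change was 0.301.

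For a gene undetected on all arrays of the dimmer group, "at least N-fold" sets the brighter mean against, per array, the higher of the dim probe's value and the lowest detected signal. The 15 largest rises and falls were given, apart from a few results not reported here, every list member that passed, at most 4 others per list, and neighbours of Snai2. The groups, gene lists and genes shown were chosen with earlier results of these data known. The replicate numbers were not read as pairs, since correlations of same-numbered deviations were 0.233, -0.212 and 0.293. Alternatives covered the arrays in the fit, blocks, background, normalization, the second table, the filter, array weights, the probe of a gene and each basal array left out.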

Additional observations from a re-analysis of the deposited data

Results flagged for a closer look

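For the genes below the effect of the null allele, as a log2 change of null against WT, was tested to differ between basal cells and another population (limma, interaction contrast, adjusted over all genes tested), with 3 arrays per group. The genes were taken from those that passed in basal cells, and that basal change is part of the contrast. Gpx2, Trh, LOC100044582, Lpo and Brinp3 passed the detection filter only through basal arrays, so nothing is read from their differences. No explanation was tested for any of the genes.

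Against luminal cells, the basal effect was higher by 4.11 for Bex4, 3.66 for Bex1, 2.97 for Pkp2 and 2.79 for Foxq1, whose luminal change was -0.42. It was higher by 2.67 for Lcp1, 2.64 for Cldn7, 2.63 for Tubb4a and 2.57 for Syngr1, a synaptic vesicle gene at -0.35 in luminal cells. The ubiquitin ligase gene Rnf208 had 2.52, with -1.01 in luminal cells, followed by Ppp1r9a with 2.42 and Gca with 2.24. Smaller differences were 1.85 for Plekhb2 and also for Lpo, the lactoperoxidase gene, 1.53 for Trh, 1.43 for Mvd, 1.40 for Gpx2 and 1.195 for LOC100044582. Among the falls the differences were -1.62 for Brinp3 and -2.83 for Cygb. Adjusted p ran from 3.12e-05 for Bex4 to 0.0459 for Gpx2.

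Against stromal cells, the basal effect was higher by 4.89 for Bex4, 4.40 for Bex1, 3.82 for Nup210 and 3.32 for Pkp2. It was higher by 3.01 for Ppp1r9a, 2.72 for Cldn7, 2.47 for Il23a, 2.41 for Lcp1 and 2.30 for Syngr1. Then came Gca with 2.02, Gpx2 with 1.72, Trh with 1.68 and LOC100044582 with 1.19. Among the falls the differences were -1.65 for Brinp3, -1.92 for Odz3 and -2.89 for Cygb. Adjusted p ran from 1.54e-06 for Bex4 to 0.041 for Odz3.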

How the results depend on the processing

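Of the 105 genes that passed between null and WT basal cells, 0 changed direction under any of the settings tried. Leaving out 1 basal array gave between 44 and 201 genes in all, between 30 and 88 higher and between 14 and 113 lower, with the lowest count without null basal 2 and the highest without WT basal 3. In a fit to the 6 basal arrays alone, where the spread comes from those arrays only, 22 passed (13 higher, 9 lower). With median scaling 61 passed (28 higher) and with array weights 770 (383 higher, 387 lower). The side of the third principal component as a term gave 86 higher genes. No background correction left 29 lower genes and the second set of deposited intensities left 28. With the positive-side basal arrays alone, a setting chosen after seeing the data, 54 passed (30 higher, 24 lower), and with the negative-side ones 22 (16 higher, 6 lower). In these 2 settings an arm of 1 array is assumed to vary like the other groups. The difference of the null effect between basal and luminal cells passed for 5 genes with median scaling, 52 with array weights, 6 and 3 on the positive and negative side alone, and 9 to 20 with 1 array left out, against 21. That between basal and stromal cells passed for 8, 53 and 7 with median scaling, array weights and the negative side, and 13 to 30 with 1 array left out, against 20. On the negative side alone Pdgfra turned to 0.60 and Marf1 to 0.0049, neither having passed. The cause of these differences was not tested.

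With the replicate number as a block 133 genes passed, 70 higher and 63 lower, 104 of them among the 105, and 18 and 19 genes passed in the tests against luminal and stromal cells. The numbers are not known to pair samples. Correlations of same-numbered deviations were 0.233, -0.212 and 0.293.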
